A study of Chlorocebus sabaeus with 10 samples.

Results

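Liver RNA was compared between vervet monkeys (Chlorocebus sabaeus) fed a high fructose (HFr) diet and monkeys fed chow, for 30 genes of cholesterol synthesis, sterol sensing, sterol transport and uptake, and sterol esterification. The genes were taken from a list of symbols, and each was represented by the transcript with the highest mean count among the rows with exactly that symbol. Of the 30 genes, 27 were found among the 28078 transcripts of the count table, and 21 had enough counts to be tested together with the other transcripts, 7948 in all. ACAT2, FDPS and GGPS1 were not found under these symbols and were not analysed here.

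The animals were 10 females, each represented by 1 RNA-Seq library from flash-frozen liver tissue. All of them had been kept on chow before the study, and for 6 weeks 5 were fed the HFr diet (HFr replicates 1 to 5) and 5 stayed on chow (chow replicates 1 to 5). The paper calls the animals age-matched and states that age and body weight were balanced between the diets. The mean age it reports was nonetheless higher on HFr, and ages varied widely within both groups. No genetic alteration or drug was named for either group. Each sample was a liver biopsy of mixed cells, so fewer cells of a type and less RNA per cell cannot be told apart in any value given here.

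Cholesterol is built from acetyl-CoA through mevalonate and isoprenoid units to squalene, which is closed into a ring and trimmed to the final sterol. In the endoplasmic reticulum the pathway is sensed by SCAP, which escorts the transcription factor SREBP-2 (gene SREBF2) to the Golgi for activation when sterols are low, and by the INSIG proteins, which hold SCAP back when sterols are high. SREBP-2 is known to switch on most enzymes of the pathway together, and the liver is a main site of this synthesis, of sterol uptake and of cholesteryl ester formation for lipoproteins.

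The totals of the libraries ranged from 2977282 to 4992505 estimated counts, of which 864571 to 2657103 were on nuclear transcripts, and mitochondrial transcripts took 34.7% to 73.6%. The overall biological coefficient of variation was 29.0%. Hepatocyte markers were abundant in every library, with summed normalized counts of 42827 to 67563 on HFr and 36561 to 71863 on chow. A normalized count is the CPM value of a library, with its size corrected by TMM, a method that assumes most transcripts do not differ. Levels are compared between animals and not between genes, because transcript lengths were not used.

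No tested cholesterol gene passed the test of the diet difference after adjustment. With edgeR's quasi-likelihood test the adjusted p of each of the 21 genes was 0.9996, and across all 7948 transcripts the lowest adjusted p was 0.872. At an unadjusted p under 0.05, 1 of the 21 genes passed (STARD5, lower on HFr), against 4.29% of all tested transcripts (341 of 7948), so the share among the cholesterol genes was near the background. By direction, 0 were higher and 1 was lower on HFr, where 2.06% of all transcripts were higher and 2.23% lower. Of the 21 genes, 13 had a fitted log2 fold change above 0 and 8 had one below 0, where 49.8% of all transcripts were above 0. Their median log2 fold change was 0.12, with a range of -0.83 to 0.48, beside a median of -0.001 over all transcripts. In none of the 21 genes did the normalized counts of the diets fail to overlap, a pattern found in 0.541% of all transcripts.

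**Figure D1:**
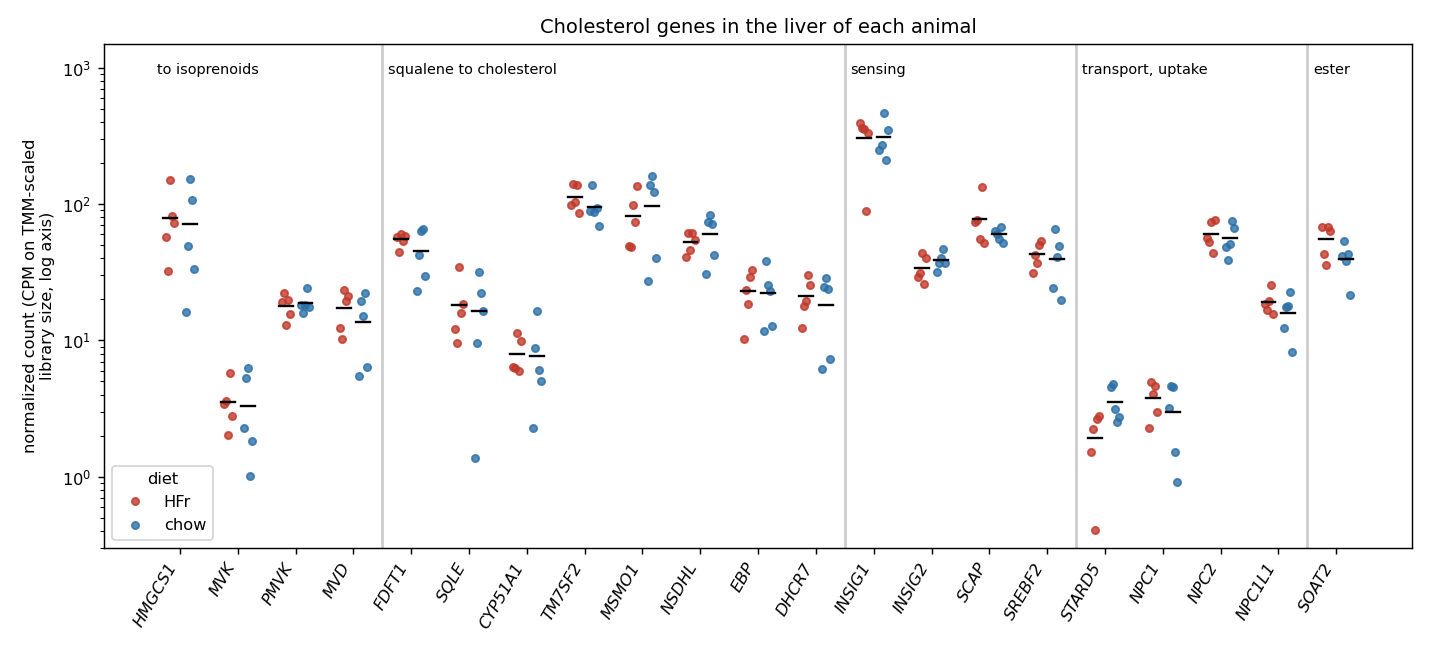
Normalized count (vertical axis, log scale) of the 21 tested cholesterol genes in each animal, grouped by role along the horizontal axis, with HFr animals in red, chow animals in blue and a black line at the mean of each diet. The diets overlap for every gene, and several synthesis enzymes have their lowest points among the chow animals, such as SQLE at 1.37.

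The precision of these comparisons differed between the genes. Standard errors of the log2 fold change ran from 0.18 to 0.53 with a median of 0.34, beside a median of 0.25 over all transcripts. Of the 21 genes, 17 had a within-diet SD of the log2 normalized count above the median of all transcripts, which was 0.363. For HMGCS1 the 95% interval of the log2 fold change ran from -0.97 to 1.22, and for SQLE from -1.002 to 1.29, so neither a rise nor a fall of nearly 1 on the log2 scale was distinguishable from no difference for these enzymes. INSIG2 had a narrower interval, from -0.58 to 0.21.

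**Figure D2:**
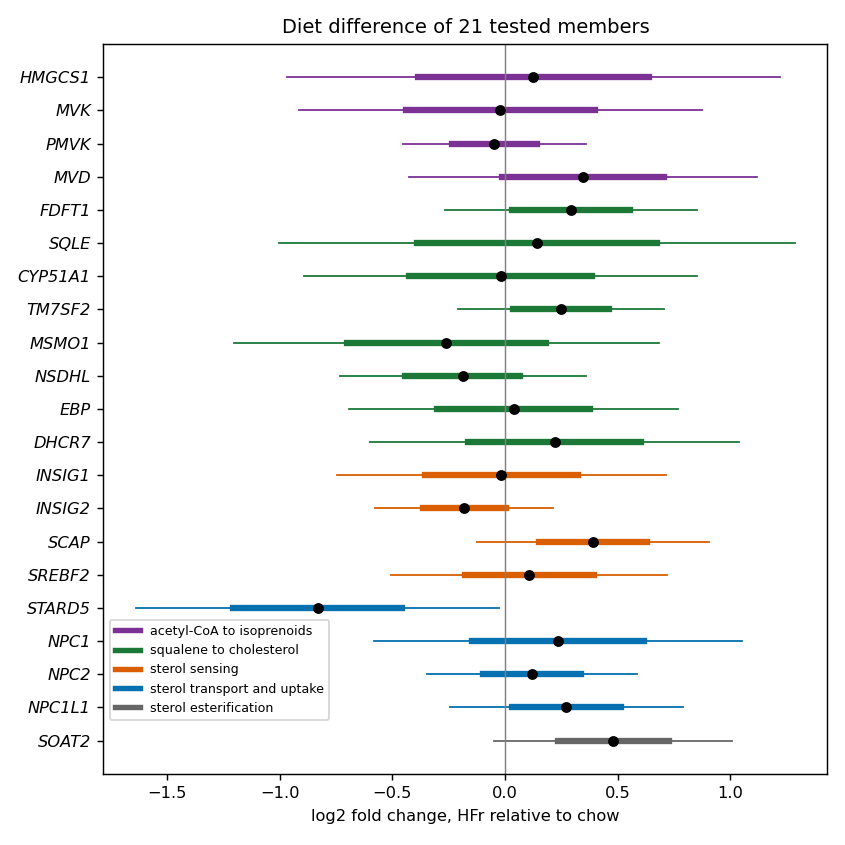
Log2 fold change of HFr relative to chow (horizontal axis) for the 21 tested genes, with a thick bar for the standard error, a thin line for the 95% interval and colours for the roles. The interval of STARD5, from -1.64 to -0.03, lies below 0 without adjustment, and the intervals of the other 20 genes contain 0.

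The first enzymes of the pathway, from acetyl-CoA to isoprenoid units, did not pass the test. HMGCS1, the cytosolic synthase that makes HMG-CoA (ENSCSAG00000016773, chromosome 4, 42080949 to 42107410, minus strand, ChlSab1.1), had normalized counts of 57.7, 32.3, 150.1, 82.2 and 72.4 in HFr replicates 1 to 5. In chow replicates 1 to 5 it had 16.2, 49.5, 153, 108 and 33.5. The lowest value and the highest value were both from chow animals, and the HFr animals lay between them. Its mean was 78.9 ± 44.0 on HFr and 72.0 ± 56.8 on chow (SD, n = 5 each), and the log2 fold change was 0.13 with a standard error of 0.51.

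MVD, which decarboxylates mevalonate diphosphate (ENSCSAG00000003054, chromosome 5, 74031316 to 74049012, minus strand), had 12.4, 10.3, 23.4, 19.5 and 21.4 normalized counts on HFr and 5.48, 19.5, 15.04, 22.2 and 6.43 on chow. Chow replicates 1 and 5 were below every HFr animal, and the other 3 chow animals lay within the HFr range. The log2 fold change was 0.35 with a standard error of 0.36 (unadjusted p = 0.353, edgeR). The kinases of the pathway were close to 0: mevalonate kinase, MVK, had a log2 fold change of -0.02 (standard error 0.42), and phosphomevalonate kinase, PMVK, one of -0.05 (standard error 0.19). MVK rested on 2 to 34 counts per library. IDI1, which isomerizes the isoprenoid unit, had 25 counts on HFr and 40 on chow in all and was not tested.

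The enzymes from squalene to cholesterol did not pass the test either, and in most of them chow replicate 1 was the lowest animal or close to it. SQLE, the epoxidase that oxidizes squalene (ENSCSAG00000010159, chromosome 8, 119586659 to 119611143, plus strand), had normalized counts of 12.1, 9.64, 34.7, 16.0 and 18.4 on HFr and 1.37, 9.64, 31.9, 22.2 and 16.5 on chow. The value of chow replicate 1 came from 6 counts, and the highest chow animal was 23.3-fold above it, whereas the HFr animals spanned 3.60-fold. The log2 fold change was 0.14 with a standard error of 0.53.

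MSMO1, which removes methyl groups from the sterol ring (ENSCSAG00000003174, chromosome 7, 111688604 to 111704850, plus strand), had 49.7, 48.9, 98.8, 74.0 and 137 normalized counts on HFr and 27.4, 138, 159.9, 123 and 39.98 on chow. Chow replicates 2 and 3 lay above every HFr animal, chow replicate 4 lay within the HFr range, and chow replicates 1 and 5 lay below every HFr animal. The means were 81.7 ± 37.1 on HFr and 97.7 ± 60.02 on chow (SD, n = 5 each), and the log2 fold change was -0.26 with a standard error of 0.44. NSDHL, a dehydrogenase that acts with MSMO1 in the same demethylation, had 40.7, 61.0, 46.0, 61.5 and 55.0 on HFr and 30.6, 73.6, 83.4, 71.3 and 42.3 on chow. For NSDHL, chow replicates 2, 3 and 4 lay above all HFr animals and replicate 1 below them, and its log2 fold change was -0.19 with a standard error of 0.25.

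DHCR7, the reductase that makes cholesterol from its 7-dehydro precursor (ENSCSAG00000009420, chromosome 1, 3243313 to 3257488, plus strand), had 12.4, 17.9, 19.4, 30.4 and 25.3 normalized counts on HFr and 6.17, 24.5, 28.6, 23.8 and 7.35 on chow. Again chow replicates 1 and 5 were below every HFr animal. The log2 fold change was 0.22 with a standard error of 0.38. FDFT1, the squalene synthase, had 57.7, 44.6, 60.9, 53.8 and 58.8 on HFr and 23.1, 42.3, 63.6, 66.2 and 29.9 on chow. Its HFr animals were close together, with chow replicates 1, 2 and 5 below them, and its log2 fold change was 0.29 with a standard error of 0.26 (unadjusted p = 0.281, edgeR).

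TM7SF2, a sterol reductase (ENSCSAG00000007642, chromosome 1, 9112710 to 9116899, minus strand), had the smallest p of the synthesis enzymes. It had 98.7, 141, 104, 139 and 86.7 normalized counts on HFr and 88.9, 138, 87.1, 94.5 and 69.4 on chow, with 4 of the 5 chow animals below 4 of the 5 HFr animals. Its log2 fold change was 0.25 with a standard error of 0.21 (unadjusted p = 0.260, edgeR). The annotated TM7SF2 overlaps VPS51 on the same strand and its estimated counts were not whole in 6 animals, so reads of these genes could have been divided between them. EBP, a sterol isomerase, and CYP51A1, the lanosterol demethylase, had log2 fold changes of 0.04 (standard error 0.34) and -0.02 (standard error 0.41).

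A further 3 enzymes of this segment were too low to be tested. LSS, the cyclase that makes lanosterol, had 22 counts on HFr and 40 on chow over 5 animals each, and SC5D, a desaturase, had 61 and 53. HSD17B7, which reduces a ketone on the sterol ring, had 2, 2, 0, 3 and 2 counts on HFr and 0, 7, 28, 5 and 3 on chow. Of the 43 chow counts of HSD17B7, 28 were from chow replicate 3, and the two-sided exact permutation test of its normalized counts gave p = 0.0556 (n = 5 each). When every transcript with a count in any animal was tested, its log2 fold change was -2.14 with a standard error of 0.75 (edgeR, unadjusted p = 0.0093, adjusted p = 0.838).

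Across the 12 tested synthesis enzymes, 7 had a log2 fold change above 0 and 5 below, the median was 0.08, and no enzyme reached an unadjusted p under 0.05. The spread between animals was wider on chow. The SD of log2(normalized count + 1) was larger on chow than on HFr for 11 of the 12 enzymes, beside 55.6% of all tested transcripts, and the median SD of the enzymes was 0.449 on HFr and 0.815 on chow. With any single animal left out, 9 to 11 of the 12 enzymes still had the larger SD on chow. With both chow replicates 1 and 5 left out, 7 of 12 did, and the median SD on chow was 0.351.

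The enzymes were low in the same animals. For each animal a synthesis level was taken as the mean over the 12 enzymes of log2(normalized count + 1), centred on the mean of the 10 animals for each gene. It was -0.22, -0.12, 0.28, 0.30 and 0.28 in HFr replicates 1 to 5 and -1.08, 0.27, 0.61, 0.27 and -0.58 in chow replicates 1 to 5. The HFr animals lay within 0.52 of each other, while the chow animals spanned 1.69, and the lowest pair and the highest animal of the 10 were on chow. The mean was 0.10 ± 0.25 on HFr and -0.10 ± 0.70 on chow (SD, n = 5 each), a difference smaller than the spread within the chow group.

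In chow replicate 1, 0 of the 12 enzymes were above their mean over the 10 animals, and this animal was the lowest of the 10 for 8 enzymes. In chow replicate 5, 1 enzyme (SQLE) was above its mean, and 7 enzymes were lowest or next to lowest. In chow replicate 3, 11 of 12 enzymes were above their mean, and 5 were the highest of the 10. Among the HFr animals the number above the mean was 3, 6, 8, 10 and 9 in replicates 1 to 5. The low level of both chow animals was also present with scaling by nuclear counts alone (-0.89 and -0.59) and by library size alone (-0.84 and -0.98).

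**Figure D3:**
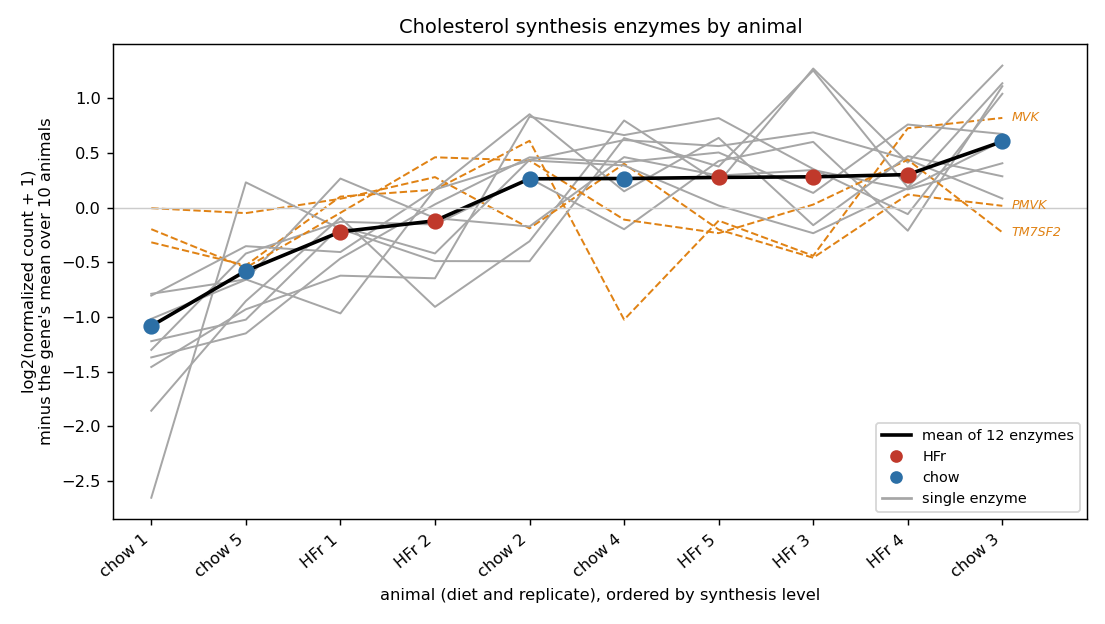
Log2(normalized count + 1) of the 12 synthesis enzymes, centred for each gene (vertical axis), in the 10 animals ordered by synthesis level (horizontal axis), with grey lines for single enzymes, dashed orange lines for MVK, PMVK and TM7SF2, a black line for the mean and points coloured by diet. Chow replicate 1 (-1.08) and chow replicate 5 (-0.58) are lowest, chow replicate 3 (0.61) is highest, and the 5 HFr animals lie between them.

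After the mean of each diet was subtracted, most enzymes varied together across the 10 animals. Over the 66 pairs of enzymes the median Pearson r was 0.54, with a range of -0.34 to 0.94, and 34 pairs were above 0.5. Over all pairs of the 7948 tested transcripts the median was -0.001 and 10.6% were above 0.5. These points share library, depth and scaling, and the values are descriptions. With the 2 animals farthest from the median level left out, chow replicates 1 and 5, the median over the 66 pairs was 0.16. Then 16 of the 66 pairs were above 0.5, beside 14.1% of all pairs of transcripts. With all 10 animals it was 34 of the 66, so the co-variation was weaker without those 2 animals. They were picked by the level of these same enzymes, which by itself lowers r, so the size of the drop is not a test.

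Each enzyme was also set against the mean of the other 11. The r was 0.94 for DHCR7, 0.94 for MSMO1, 0.90 for NSDHL, 0.87 for FDFT1, 0.86 for MVD, 0.84 for CYP51A1 and 0.83 for HMGCS1, and it was 0.71 for both SQLE and EBP. In all, 9 of the 12 enzymes were above 0.5, beside 12.2% of all tested transcripts set against the synthesis level. MVK (0.27), TM7SF2 (0.22) and PMVK (-0.10) were the 3 enzymes that were not. Without chow replicates 1 and 5, 5 of the 12 were above 0.5 (DHCR7 0.78, MSMO1 0.73, SQLE 0.56, CYP51A1 0.54 and HMGCS1 0.54), beside 10.5% of all tested transcripts. The r then was 0.48 for MVD, 0.37 for NSDHL, 0.34 for EBP, 0.32 for FDFT1, -0.03 for MVK, -0.37 for TM7SF2 and -0.56 for PMVK.

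The synthesis level moved inversely with the RNA of stellate cells and fibroblasts, the collagen-producing cells of liver. The summed normalized count of 7 markers of these cells was 381, 356, 381, 251 and 198 in HFr replicates 1 to 5 and 780, 212, 162, 267 and 655 in chow replicates 1 to 5. The chow animals with the lowest synthesis levels, replicates 1 and 5, had the highest marker sums, and chow replicate 3, with the highest level, had the lowest sum. With the diet means removed, r between the synthesis level and the log2 sum was -0.93 (Spearman's rho -0.88, n = 10), and it was -0.67 without chow replicates 1 and 5. Of the 5 markers tested, 4 had an r below -0.5 with the level (DCN, LUM, COL1A1 and COL1A2), beside 11.6% of all transcripts, and the r of ACTA2 was -0.42. DCN, the proteoglycan decorin, had 249, 188, 217, 148 and 114 normalized counts on HFr and 501, 111, 105, 143 and 370 on chow.

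**Figure D4:**
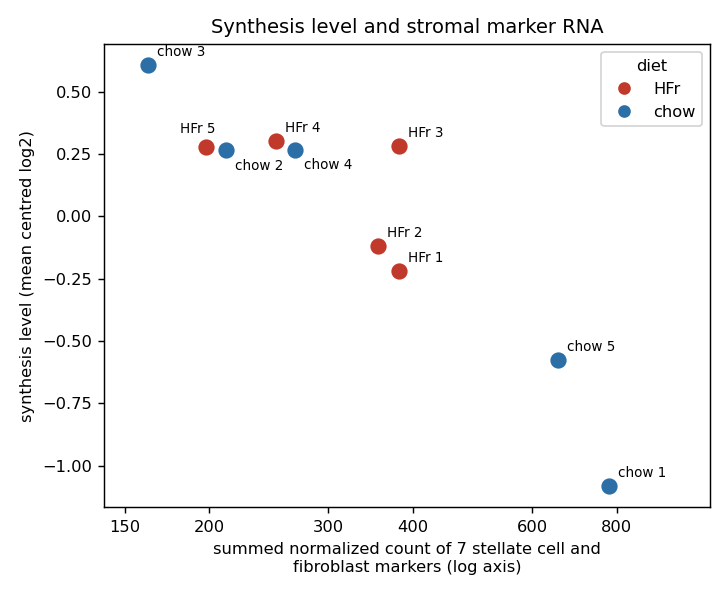
Synthesis level (vertical axis, mean centred log2 over 12 enzymes) against the summed normalized count of 7 stellate cell and fibroblast markers (horizontal axis, log scale) in each of the 10 animals, coloured by diet. Chow replicates 1 and 5 combine the highest marker sums, 780 and 655, with the lowest synthesis levels.

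Other cell types and library properties moved less with the synthesis level. The r of the log2 sum was 0.66 for hepatocyte markers and 0.06 without chow replicates 1 and 5. For endothelial markers it was -0.55, and -0.21 without those 2 animals. It was 0.02 for macrophage, 0.41 for lymphocyte, -0.26 for cholangiocyte and -0.09 for erythroid markers, -0.25 for the mitochondrial share and 0.34 for the log2 nuclear count. Without those 2 animals it was 0.02 for macrophage, 0.49 for lymphocyte, -0.22 for cholangiocyte and 0.24 for erythroid markers. For the mitochondrial share it was then 0.007, and for the log2 nuclear count 0.41. Of the hepatocyte markers, 5 of 7 had an r above 0.5, beside 12.2% of all tested transcripts. Among them were TTR (0.90) and TF (0.79), while ALB had 0.44 and HNF4A -0.23. Without chow replicates 1 and 5, 1 of the 7 was above 0.5 (TTR, 0.69), beside 10.5% of all tested transcripts. TF then had 0.07, ALB -0.16 and HNF4A -0.28. The part of the cell makeup of each sample in the synthesis level was not tested.

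Between the diets, the marker sums overlapped in all 7 lists. They were 198 to 381 on HFr and 162 to 780 on chow for stellate cells and fibroblasts, 321 to 436 and 247 to 425 for endothelial cells, 33.2 to 143 and 31.5 to 146 for macrophages, 30.7 to 53.3 and 29.2 to 44.6 for lymphocytes, 5.998 to 26.7 and 10.1 to 31.8 for cholangiocytes, and 101 to 335 and 61.1 to 346 for erythroid cells. MS4A1, CD79A and AHSP had 10 counts or fewer in all libraries together. At an unadjusted p under 0.05, 1 of 5 tested stellate cell and fibroblast markers (ACTA2, log2 fold change -1.57, standard error 0.49) and 1 of 7 endothelial markers (KDR, 0.57, standard error 0.19) passed, beside 4.29% of all tested transcripts, and the other lists had 0.

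Since chow replicates 1 and 5 stood apart by their stellate cell and fibroblast RNA and were also the lowest in the enzymes, the diets were compared without them, which moves the enzymes lower on HFr by construction. With 5 HFr and 3 chow animals the median log2 fold change of the 12 enzymes was -0.31 in place of 0.08. MSMO1 (-0.79, unadjusted p = 0.028) and NSDHL (-0.53, unadjusted p = 0.019) then passed the unadjusted threshold in edgeR. They were 2 of the 21 tested cholesterol genes, beside 4.33% of all transcripts (368 of 8502), and no transcript passed after adjustment. These p-values rest on that choice of animals. With all 10 animals and the log2 marker sum as a covariate, the median was 0.16 and no enzyme passed. The median was -0.13 without chow replicate 1 and -0.06 without chow replicate 5, so its direction depended on either of these animals.

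Of the 4 genes of the sterol sensing system, SREBF2 had the highest r with the synthesis level. SREBF2, the gene of the transcription factor SREBP-2 (ENSCSAG00000005734, chromosome 19, 24364911 to 24440015, plus strand), had normalized counts of 31.3, 42.4, 37.1, 50.2 and 53.8 on HFr and 24.5, 65.5, 40.7, 49.0 and 19.8 on chow. Chow replicates 1 and 5 were again the lowest animals. Its log2 fold change was 0.11 with a standard error of 0.29, and its r with the synthesis level was 0.77, and 0.23 without those 2 animals.

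SCAP, the escort of SREBP-2 (ENSCSAG00000016024, chromosome 22, 8818980 to 8850203, minus strand), had 73.5, 76.9, 55.3, 135 and 52.2 normalized counts on HFr and 63.5, 60.2, 55.7, 68.2 and 51.9 on chow. The chow animals were close together, and HFr replicate 4 was far above the other 9. The log2 fold change was 0.39 with a standard error of 0.24 (unadjusted p = 0.124, edgeR), and it was 0.10 without HFr replicate 4. SCAP overlaps PTPN23, which lies on the opposite strand, and the strand setting of the counting was not given in the sources used here. Its r with the synthesis level was 0.01.

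INSIG1, which retains SCAP in the endoplasmic reticulum and is itself a known SREBP-2 target (ENSCSAG00000006509, chromosome 21, 123449106 to 123460808, plus strand), had 397, 362, 355, 88.4 and 334 normalized counts on HFr and 248, 273, 468, 212 and 350.2 on chow. HFr replicate 4, the animal of the highest SCAP count, was far below the other 9 animals, and its INSIG1 value rested on 398 counts. The means were 307 ± 124 on HFr and 310.2 ± 102 on chow (SD, n = 5 each), with a log2 fold change of -0.02 and a standard error of 0.34. Without HFr replicate 4 the log2 fold change was 0.21. The r of INSIG1 with the synthesis level was -0.03, and its lowest chow animal was replicate 4.

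INSIG2, the other retention protein (ENSCSAG00000016534, chromosome 10, 12196990 to 12219024, minus strand), had 29.0, 31.2, 44.0, 25.8 and 40.2 normalized counts on HFr and 31.99, 37.2, 40.2, 47.0 and 36.8 on chow. The diets overlapped widely, and the log2 fold change was -0.18 with a standard error of 0.18. Its r with the synthesis level was 0.49, and 0.30 without chow replicates 1 and 5. The SD was larger on chow for 1 of the 4 sterol sensing genes (SREBF2) and for 11 of the 12 enzymes, beside 55.6% of all tested transcripts. HFr replicate 4 was far from the other HFr animals for INSIG1 and SCAP. Without chow replicates 1 and 5 the SD was larger on chow for 7 of the 12 enzymes. The contrast between sensing genes and enzymes was not tested.

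**Figure D5:**
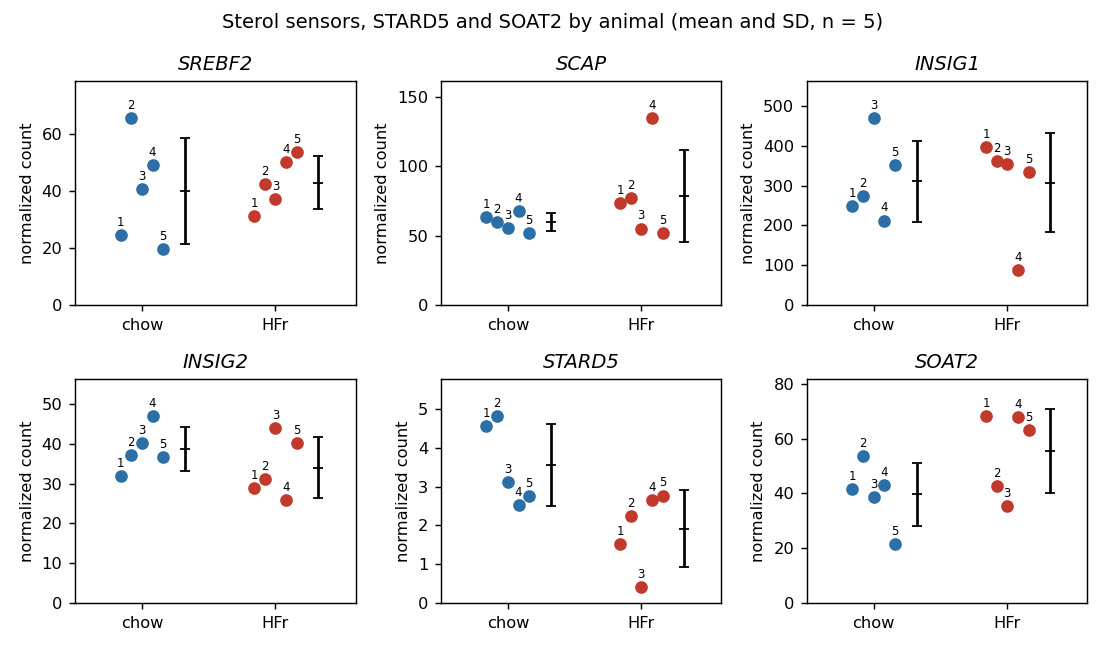
Normalized count (vertical axes, starting at 0) of the 4 sterol sensing genes, STARD5 and SOAT2 in each animal, labelled with its replicate number, with the mean and SD of each diet (n = 5) beside the points. HFr replicate 4 stands apart with the lowest INSIG1 count (88.4) and the highest SCAP count (135), and the STARD5 values of the diets overlap between 2.53 and 2.77.

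Among the genes of sterol transport and uptake, STARD5 was the single gene with an unadjusted p under 0.05. STARD5 encodes a cytosolic sterol-binding protein of the START family (ENSCSAG00000015127, chromosome 26, 2067456 to 2077950, plus strand). It had normalized counts of 1.51, 2.24, 0.403, 2.67 and 2.77 on HFr and 4.57, 4.82, 3.12, 2.53 and 2.76 on chow. The 5 HFr animals were all below the chow mean, but chow replicates 4 and 5 lay within the HFr range. The means were 1.92 ± 0.981 and 3.56 ± 1.06 (SD, n = 5 each), and the log2 fold change was -0.83 with a standard error of 0.38 (edgeR, unadjusted p = 0.0437, adjusted p = 0.9996), and the two-sided exact permutation test gave p = 0.0397.

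These values rested on 1 to 22 counts per library, with 41 counts on HFr and 70 on chow in all. Over 23 alternative analyses that tested STARD5 the log2 fold change was below 0 in each, and the unadjusted p was between 0.0368 and 0.115 and was under 0.05 in 14. It was not under 0.05 without HFr replicate 1, 2 or 3 or without chow replicate 1 or 2. STARD5 overlaps IL16 on the opposite strand. Its r with the synthesis level was -0.14.

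The other transport genes did not pass the test. NPC1 and NPC2, which pass cholesterol out of the lysosome, had log2 fold changes of 0.24 (standard error 0.38) and 0.12 (standard error 0.22), and NPC1 rested on 2 to 25 counts per library. NPC1L1, the sterol importer of the cell surface, had 18.5, 16.8, 19.4, 25.3 and 15.6 normalized counts on HFr and 12.3, 17.7, 18.0, 22.7 and 8.27 on chow. Chow replicates 1 and 5 were the lowest animals for NPC1L1 as well, its log2 fold change was 0.27 with a standard error of 0.24, and its r with the synthesis level was 0.68, and 0.16 without those 2 animals. STARD4, another sterol-binding START protein, had 1 count on HFr and 3 on chow in all, and no fold change is given.

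Of the acyltransferases that store cholesterol as esters, SOAT2, the enzyme of hepatocytes and intestine (ENSCSAG00000005549, chromosome 11, 49215034 to 49228245, plus strand), had 68.2, 42.8, 35.5, 68.0 and 63.1 normalized counts on HFr and 41.6, 53.7, 38.5, 43.0 and 21.6 on chow. In 3 HFr animals it was above every chow animal, while HFr replicates 2 and 3 lay within the chow range. The means were 55.5 ± 15.3 on HFr and 39.7 ± 11.6 on chow (SD, n = 5 each). The log2 fold change was 0.48 with a standard error of 0.25 (unadjusted p = 0.0714, edgeR), and the two-sided exact permutation test gave p = 0.103. The unadjusted p was under 0.05 without HFr replicate 2, without HFr replicate 3 or without chow replicate 2, and the log2 fold change stayed between 0.33 and 0.62 with any single animal left out. SOAT1, the acyltransferase of most other tissues, had 42 counts on HFr and 84 on chow and was not tested, and 48 of the chow counts were from chow replicate 3.

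A list of 30 other genes of cholesterol handling, such as efflux transporters, receptors, SREBP proteases and sterol-regulated ubiquitin ligases, was read in the same way. Of 20 that could be tested, 11 had a log2 fold change above 0 and 9 below, 0 reached an unadjusted p under 0.05, and the median was 0.10 with a range of -0.52 to 0.91. The smallest p-values were those of STARD3, a sterol carrier of late endosomes (0.91, standard error 0.46, unadjusted p = 0.0709), ERLIN1, a protein that takes part in the turnover of sterol-regulated proteins (-0.52, standard error 0.27, unadjusted p = 0.0754), and TMEM97, a membrane protein that binds sterols (-0.33, standard error 0.22, unadjusted p = 0.145), all by edgeR. STARD3 rested on 1 to 29 counts per library.

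TMEM97 had 83.3, 87.9, 91.6, 156 and 118 normalized counts on HFr and 99.4, 159, 162, 120.3 and 136 on chow. It followed the synthesis level with an r of 0.64, which was 0.68 without chow replicates 1 and 5. ERLIN1 had 41.8, 34.8, 34.7, 27.5 and 25.5 on HFr and 25.1, 29.3, 68.0, 60.1 and 52.4 on chow, where 3 chow animals lay above all HFr animals and 2 lay within or just under their range. Of the 20 other genes, 6 had an r above 0.5 with the synthesis level and 2 had one below -0.5, beside 12.2% and 11.6% of all tested transcripts. Without chow replicates 1 and 5 these counts were 2 and 3, beside 10.5% and 10.02% of all transcripts.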

How the data were processed

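RNA-Seq libraries were prepared from liver total RNA of 10 female vervet monkeys with a stranded mRNA kit, 1 library per animal. Per the labels and methods, the authors processed base calls with CASAVA 1.8, checked reads with FastQC, aligned paired reads of 100 bases with STAR 2.5.3a in Partek Flow to the ChlSab1.1 build, and quantified Ensembl transcripts with an expectation-maximization model. The deposited estimated counts were not normalized, and 97.69% of them were whole numbers. The deposited normalized signal values were scaled by the authors with TMM and were used in 1 alternative. The strand setting of the counting was not given in the sources used here, and 0 columns of other samples were present.

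Estimated counts were rounded, filtered with filterByExpr (minimum count 10, minimum total 15) and compared between diets with edgeR 4.0.16 (R 4.3.3) (quasi-likelihood test, TMM normalization, no covariate beside diet). TMM factors lay between 0.607 and 1.49. Standard errors are the log2 fold change divided by the square root of F, and p-values were adjusted by Benjamini-Hochberg over all 7948 tested transcripts at a threshold of 0.05. Single values were compared by two-sided exact permutation tests over the 252 assignments of animals, where the smallest possible p is 0.00794. Levels per animal used log2(normalized count + 1). P-values measure the spread between animals of these groups. The procedure was tested on simulated data. limma 3.58.1 and DESeq2 1.42.0 served in alternatives, of which there were 24, 2 of them chosen after seeing the data.

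The genes and lists were chosen with earlier results of these data known. Values in every animal were given for genes with an unadjusted p under 0.05, the smallest p in each of 5 roles, the 5 highest within-diet SDs and the 4 sterol sensing genes. FDFT1, NSDHL, NPC1L1 and the counts of HSD17B7 were added after their values were seen. Of the other list, the 3 with the smallest p were named. Coordinates are those of the deposited table on ChlSab1.1. No genome or sequence of that build was used here.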

Additional observations from a re-analysis of the deposited data

Results flagged for a closer look

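INSIG1 in HFr replicate 4 was flagged as an animal far from the others of its diet. Its normalized count was 88.4, the nearest HFr animal had 334 and the highest had 397. The gap was 0.796 of the range of the 5 animals, above Dixon's critical value of 0.71. Of 42 groups of 5 animals checked, the 21 genes in each diet, this was the 1 flagged, and chance flags about 5% of groups, or 2.1 of 42. The same animal had the highest SCAP count of the 10 animals, 135. Whether a cause specific to this library lies behind the value was not tested.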

How the results depend on the processing

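The diet comparison was repeated under 24 alternatives. With 5 animals per diet and standard errors up to 0.53, fold changes of single enzymes were loosely bounded.

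The number of transcripts with an adjusted p under 0.05 was 0 in the main analysis, 1 with library size only and 2 with DESeq2. The number with an unadjusted p under 0.05 was 341, and it was 123 with library size only and 756 of 16066 with a filter of any count above 0. Leaving out 1 animal gave 260 (without HFr replicate 2) to 408 (without chow replicate 2 or 4). Of the cholesterol genes, 1 passed (STARD5), and 0 of the 21 passed with library size only, with the any-count filter, with at least 10 counts in every animal (17 genes tested, without STARD5) and with the replicate block. It was 2 (MSMO1 and NSDHL) without both animals of highest stellate cell and fibroblast marker sum, beside 4.33% of all transcripts (368 of 8502). These animals were also the lowest in the enzymes, so leaving them out moves the enzymes lower on HFr by construction. The number was 0 or 1 with 1 animal left out. That 1 gene was STARD5 in 5 of the 10 runs and SOAT2 in 3 (without HFr replicate 2 or 3 or chow replicate 2), and 0 passed without HFr replicate 1 or chow replicate 1. Among all transcripts HSD17B7 passed the unadjusted threshold with the any-count filter. The median log2 fold change of the synthesis enzymes was 0.08. With 1 animal left out it lay between -0.13 (without chow replicate 1) and 0.36 (without chow replicate 3), and without both animals of highest marker sum it was -0.31.

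Replicate numbers were not treated as pairs, since the sources used here name no pairing of animals. The correlations of same-numbered animals were -0.04, -0.005, -0.04, 0.10 and -0.29, and without a reference they cannot decide on a pairing. With the number as a replicate block, 271 transcripts passed at 0.05 unadjusted, STARD5 had -0.91 (edgeR, unadjusted p = 0.060), and the median of the enzymes was 0.22.

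Some log2 fold changes near 0 changed sign. With library size only, PMVK was 0.012 and EBP -0.018. MVK was 0.0058 with DESeq2, 0.11 with the equal-variance test on the deposited normalized values, 0.17 with limma, 0.10 with the block and 0.17 with the mitochondrial share as a covariate. CYP51A1 was 0.0060 with DESeq2, 0.085 with the equal-variance test, 0.21 with limma, 0.18 with the block, 0.078 with the mitochondrial covariate and 0.084 with the marker covariate, where EBP was -0.018. INSIG1 was 0.023 in the equal-variance test. Both animals of highest marker sum were also the lowest in the enzymes, so leaving them out lowers the enzymes on HFr by construction. Without them, HMGCS1 was -0.40, MVD -0.11, FDFT1 -0.061, SQLE -0.26, EBP -0.34, DHCR7 -0.28, SREBF2 -0.27, NPC1 -0.0036 and NPC1L1 -0.018. With 1 animal left out, the ranges that crossed 0 were -0.25 to 0.62 for HMGCS1, -0.29 to 0.33 for MVK, -0.14 to 0.045 for PMVK, -0.21 to 0.62 for SQLE, -0.27 to 0.51 for CYP51A1, -0.13 to 0.34 for EBP, -0.010 to 0.47 for DHCR7, -0.13 to 0.21 for INSIG1 and -0.061 to 0.37 for SREBF2. The causes were not tested.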
